A study of Homo sapiens with 16 samples.

Results

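The 2 HepG2 JARID2 peak lists were set against the 2 THLE-2 EZH2 peak lists on chromosomes 1 to 22 and X, in each of the 4 library pairs. A JARID2 peak and an EZH2 peak were called joint when they shared at least 1 bp. The 4 lists held 25480 peaks, of 172991 peaks in the 8 lists of the series. The JARID2 lists gave 15687 peaks for replicate 1 and 4075 for replicate 2, and the EZH2 lists gave 2081 and 3637. HepG2 is a line from a human hepatocellular carcinoma, and its chromatin was precipitated for JARID2. THLE-2 is an immortalised human liver epithelial line without a tumour origin, and its chromatin was precipitated for EZH2. No treatment or engineered allele is named in the labels for either line. The series also holds 2 JARID2 and 2 H3K27me3 lists of THLE-2, described as biological replicates like the others, and an input library for each precipitated one.

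EZH2 is the catalytic subunit of Polycomb repressive complex 2, which methylates lysine 27 of histone H3 and keeps developmental genes silent. JARID2 is a DNA-binding accessory subunit that helps to bring the complex to CpG-rich promoters. Polycomb domains often cover transcription factor genes of lineages that a cell does not follow, with a broad EZH2 signal around the gene start. The target and the cell line change together in this comparison, so a difference between the protein and a difference between the lines cannot be told apart.

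The HepG2 JARID2 libraries held 7.95 and 14.6 M tags after filtering, and the THLE-2 EZH2 libraries 29.6 and 32.4 M. The JARID2 replicates stood apart from each other: 44 of the 15687 replicate 1 peaks (0.280%) met a replicate 2 peak. Of the peaks, 27.1% in JARID2 replicate 1 and 3.41% in JARID2 replicate 2 lay within 2 kb of an end of a protein-coding gene, against 54.6% and 34.9% in the EZH2 lists. The median false discovery rate given by the peak caller was 1.29% in JARID2 replicate 1 and 100% in JARID2 replicate 2 and both EZH2 lists. HepG2 JARID2 replicate 1 is also the single library whose protocol gives a JARID2 antibody; the others carry a general antibody sentence, so targets were taken from titles and antibody tags. Peak lists hold no expression values, so the cell lines were not checked by markers. Because the JARID2 replicates stood apart, results are given per JARID2 library, and the genes at joint sites rest on replicate 1 alone.

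Promoters of genes with joint sites are shown first, because the joint set was richer in the dinucleotide CG than the EZH2 set without JARID2. Each sequence runs from 250 bases before to 50 bases after the RefSeq gene start on GRCh38.p14, 5′ to 3′ on the gene's strand, with every CG in capitals. The first 4 are the best-ranked joint genes whose window overlapped the JARID2 peak. PDZD4, a PDZ domain gene, has its window on the minus strand at chrX:153830495-153830794. MPPED1, a metallophosphoesterase gene, lies on the plus strand at chr22:43411764-43412063. BHLHE23, a helix-loop-helix transcription factor gene, lies on the minus strand at chr20:63006915-63007214. RAI2, a retinoic acid induced gene, lies on the minus strand at chrX:17860856-17861155.
PDZD4: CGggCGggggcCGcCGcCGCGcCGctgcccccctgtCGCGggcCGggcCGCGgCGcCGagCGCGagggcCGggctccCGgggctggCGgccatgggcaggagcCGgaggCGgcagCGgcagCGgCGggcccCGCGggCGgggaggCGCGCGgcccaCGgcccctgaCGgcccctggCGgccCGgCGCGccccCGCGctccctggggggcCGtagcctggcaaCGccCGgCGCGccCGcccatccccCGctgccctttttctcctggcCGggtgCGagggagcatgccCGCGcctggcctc
MPPED1: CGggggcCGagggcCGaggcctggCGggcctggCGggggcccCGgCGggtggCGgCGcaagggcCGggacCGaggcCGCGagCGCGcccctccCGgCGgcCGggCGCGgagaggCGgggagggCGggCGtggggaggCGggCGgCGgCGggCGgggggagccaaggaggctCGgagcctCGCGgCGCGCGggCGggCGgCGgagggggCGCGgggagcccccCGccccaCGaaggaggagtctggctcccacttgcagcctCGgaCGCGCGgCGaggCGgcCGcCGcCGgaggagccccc
BHLHE23: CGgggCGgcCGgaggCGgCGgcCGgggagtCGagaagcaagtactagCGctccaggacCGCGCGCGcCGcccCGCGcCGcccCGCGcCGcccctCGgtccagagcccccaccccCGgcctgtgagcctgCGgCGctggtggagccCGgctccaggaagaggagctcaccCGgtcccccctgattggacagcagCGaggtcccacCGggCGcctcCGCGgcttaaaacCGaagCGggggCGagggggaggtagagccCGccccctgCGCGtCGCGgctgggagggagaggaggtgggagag
RAI2: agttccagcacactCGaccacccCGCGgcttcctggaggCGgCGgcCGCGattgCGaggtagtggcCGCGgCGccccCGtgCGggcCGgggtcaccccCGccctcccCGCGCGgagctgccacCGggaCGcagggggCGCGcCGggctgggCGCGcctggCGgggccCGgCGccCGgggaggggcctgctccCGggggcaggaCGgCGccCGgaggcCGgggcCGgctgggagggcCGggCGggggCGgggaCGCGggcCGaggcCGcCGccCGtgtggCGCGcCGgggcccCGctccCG

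The next 3 are genes with EZH2 of both replicates and no HepG2 JARID2 peak within 10 kb. LGR6, an R-spondin receptor gene, has its window on the plus strand at chr1:202193549-202193848. PELI2, a pellino ubiquitin ligase gene, lies on the plus strand at chr14:56118161-56118460. HOXD4, a body axis homeobox gene, lies on the plus strand at chr2:176151300-176151599.
LGR6: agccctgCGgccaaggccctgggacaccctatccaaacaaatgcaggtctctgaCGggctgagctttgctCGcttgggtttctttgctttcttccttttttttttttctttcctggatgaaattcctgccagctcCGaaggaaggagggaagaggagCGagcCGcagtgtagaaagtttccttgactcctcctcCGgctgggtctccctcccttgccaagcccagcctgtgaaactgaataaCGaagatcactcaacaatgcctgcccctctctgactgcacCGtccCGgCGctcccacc
PELI2: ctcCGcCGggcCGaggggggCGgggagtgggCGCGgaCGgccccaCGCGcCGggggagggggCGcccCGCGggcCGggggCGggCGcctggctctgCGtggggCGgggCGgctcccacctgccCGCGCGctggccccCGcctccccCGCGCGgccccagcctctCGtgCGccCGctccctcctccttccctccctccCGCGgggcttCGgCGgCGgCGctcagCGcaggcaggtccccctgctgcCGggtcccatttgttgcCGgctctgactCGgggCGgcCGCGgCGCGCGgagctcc
HOXD4: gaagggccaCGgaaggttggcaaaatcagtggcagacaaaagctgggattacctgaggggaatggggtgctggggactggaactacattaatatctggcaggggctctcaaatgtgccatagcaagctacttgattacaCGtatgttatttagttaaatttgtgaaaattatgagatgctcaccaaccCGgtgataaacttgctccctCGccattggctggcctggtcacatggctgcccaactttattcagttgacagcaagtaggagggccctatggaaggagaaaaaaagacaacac

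The 4 joint windows held 49 (PDZD4), 50 (MPPED1), 38 (BHLHE23) and 49 (RAI2) CG dinucleotides in 300 bases. The 3 windows without JARID2 held 11 (LGR6), 45 (PELI2) and 4 (HOXD4), so PELI2 lay within the range of the joint windows. Medians were taken over genes in the promoter table with an EZH2 peak within 2 kb of the start. With EZH2 replicate 1 the median was 32 CG in 325 promoters of joint genes, against 25 in 441 promoters of genes without JARID2. With EZH2 replicate 2 it was 32 in 338 joint promoters, against 25 in 500 without. The median of all 15811 promoters in the table was 22. At least 15 CG were present in 89.2% and 89.3% of joint promoters for EZH2 replicates 1 and 2, against 79.4% and 77.2% without JARID2 and 65.5% of all promoters. A CG reads the same on both strands, so 1 count serves both. Promoters with JARID2 replicate 1 at the start and no EZH2 at the gene held a median of 31 CG (2616 promoters, 87.7% with at least 15). The CG richness of joint promoters was therefore close to that of JARID2 replicate 1 promoters in general.

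HepG2 JARID2 replicate 1 met THLE-2 EZH2 far more often than replicate 2 did. Of its 15687 peaks, 698 (4.45%, Wilson 95% interval 4.14 to 4.78) met EZH2 replicate 1 and 736 (4.69%, 4.37 to 5.03) met EZH2 replicate 2. Of the 4075 JARID2 replicate 2 peaks, 7 (0.172%, 0.0832 to 0.354) and 11 (0.270%, 0.151 to 0.483) met them. Such intervals cover counting error only. EZH2 peaks covered 0.243% and 0.279% of the chromosome span, which puts the JARID2 replicate 1 shares at 18.3 and 16.8 times that cover and the replicate 2 shares at 0.706 and 0.967 times. The replicate 2 intervals include the cover, so no excess over it was detectable at this number of peaks. Cover counts single bases, so peaks of any width meet EZH2 somewhat more often than the cover. Cover also ignores gene ends, which held 27.1% of JARID2 replicate 1 peaks, 3.41% of replicate 2 peaks and 54.6% and 34.9% of EZH2 peaks. The multiples of cover therefore include this shared placement. Counted over genes, 11.6% and 12.3% of genes with JARID2 replicate 1 had EZH2, against 5.92% and 6.54% of all coding genes. Among peaks with a peak caller score of at least 100, 160 (10.3%) and 176 (11.4%) of 1546 JARID2 replicate 1 peaks met EZH2, and 1 (1.79%) of 56 JARID2 replicate 2 peaks met each EZH2 list.

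Counted over EZH2 peaks, 608 of 2081 (29.2%, 27.3 to 31.2) in EZH2 replicate 1 held JARID2 replicate 1. In EZH2 replicate 2 it was 638 of 3637 (17.5%, 16.3 to 18.8). With JARID2 replicate 2 the counts were 7 (0.336%) and 10 (0.275%). With a score of at least 100 in both lists, 13.5% and 12.5% of EZH2 peaks held JARID2 replicate 1. With 2081 top peaks by fold from every list, 4.47% and 2.02% did. Most joint EZH2 peaks held 1 JARID2 replicate 1 peak (528 and 552), 70 and 76 held 2, and 10 in each list held 3 or more. Overlap with both EZH2 lists was found for 573 JARID2 replicate 1 peaks and 3 JARID2 replicate 2 peaks.

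The JARID2 lists of THLE-2 lay between the HepG2 replicates. An EZH2 peak of either replicate was met by 5.49% (861 peaks) and 0.368% (15 peaks) of the HepG2 JARID2 peaks, against 1.87% (100 peaks) and 1.94% (107 peaks) of the THLE-2 JARID2 peaks. The means were 2.93% in HepG2 and 1.90% in THLE-2, a difference of 1.03 points (two-sided exact permutation test over the 4 libraries, p = 1). The smallest p that 2 libraries against 2 can give is 0.333. Without HepG2 replicate 1 the difference turned to -1.53 points, so the direction rests on that library. The HepG2 and THLE-2 JARID2 peaks seldom met directly: 20 and 27 of the 861 joint HepG2 replicate 1 peaks (2.32% and 3.14%) overlapped a JARID2 peak of THLE-2 replicates 1 and 2, against 1.45% and 1.69% of the 14826 peaks outside EZH2.

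**Figure D1:**
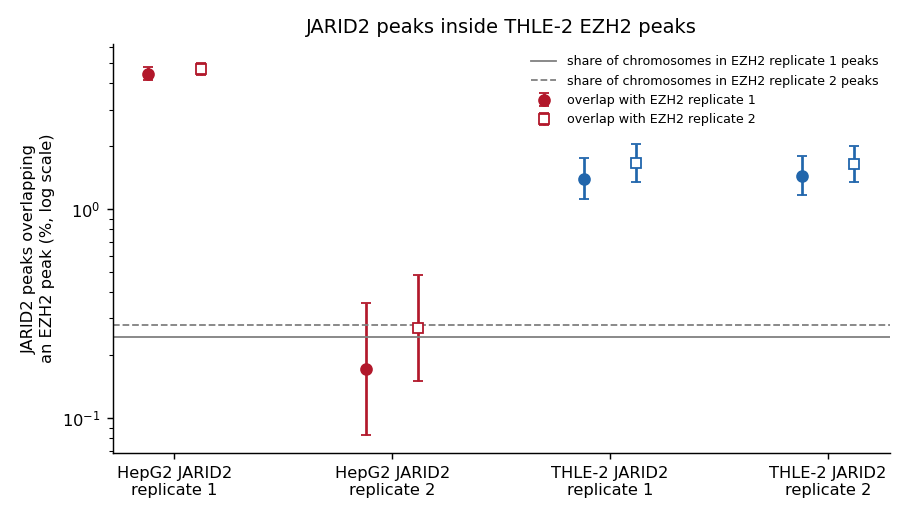
Share of JARID2 peaks overlapping a THLE-2 EZH2 peak (percent, log scale) for the 2 HepG2 (red) and 2 THLE-2 (blue) JARID2 libraries, filled circles for EZH2 replicate 1 and open squares for EZH2 replicate 2, bars Wilson 95% intervals. HepG2 replicate 1 sits above 4%, both THLE-2 libraries at or below 1.66%, and HepG2 replicate 2 at the grey lines, which mark the share of the chromosomes covered by EZH2 peaks.

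Joint sites were mostly gene ends. Of the JARID2 replicate 1 peaks at gene ends, 11.7% and 12.0% met EZH2 replicates 1 and 2, against 1.77% and 1.96% of the peaks elsewhere. Of the EZH2 replicate 1 peaks at coding gene ends, 42.2% (479 of 1136) were joint. The share was 25.7% (38 of 148) at ends of long non-coding RNA genes only, 18.1% (57 of 315) inside coding genes and 7.05% (34 of 482) elsewhere. EZH2 replicate 2 gave 38.4%, 15.9%, 8.41% and 3.09% for the same places. The order of places was the same in both EZH2 lists. Median widths ran in that order too in EZH2 replicate 1, at 3768, 3377, 1646 and 1022 bp, and the part of width in the order was not tested beyond the width classes below.

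Wide EZH2 peaks held JARID2 replicate 1 more often than narrow ones. In EZH2 replicate 1 the joint share was 1.58% of peaks under 1 kb, 11.1% from 1 to 2 kb, 36.0% from 2 to 4 kb, 43.1% from 4 to 8 kb and 53.2% at 8 kb or wider. EZH2 replicate 2 gave 1.11%, 11.3%, 35.0%, 42.5% and 50%. A wide peak has more bases in which to meet any other peak. Within the class from 2 to 4 kb, gene-end EZH2 peaks were joint in 39.7% and 38.2% of cases, against 27.8% of the peaks away from gene ends in both lists. EZH2 peaks that both EZH2 replicates shared were joint in 37.8% and 37.0% of cases, against 14.5% and 6.11% of those in 1 replicate, which were also narrower (medians of 3807 and 3631 bp, against 1079 and 704 bp).

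**Figure D2:**
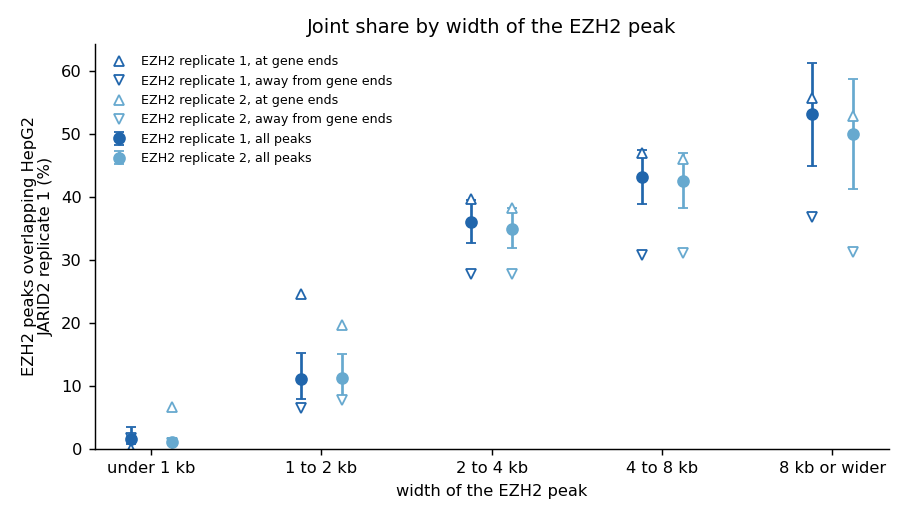
Share of THLE-2 EZH2 peaks that overlap HepG2 JARID2 replicate 1 (percent) by width of the EZH2 peak, dark blue for EZH2 replicate 1 and light blue for replicate 2; circles are all peaks with Wilson 95% intervals, upward triangles gene-end peaks and downward triangles other peaks. The share climbs from under 2% below 1 kb to 50% or more at 8 kb, and gene-end peaks lie above the others in each class from 1 kb upward.

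Joint EZH2 peaks were broader than EZH2 peaks without JARID2, and over every place their median fold was lower. Their median width was 3922 bp in EZH2 replicate 1, against 2515 bp for EZH2 peaks without JARID2, and 3659 bp against 807 bp in replicate 2. Their median fold enrichment, the authors' ratio of precipitated over local background tags at a peak, was 7.82 against 8.34 in EZH2 replicate 1 and 5.95 against 6.89 in replicate 2. Their median peak caller score was higher, at 230 against 89.64 in EZH2 replicate 1 and 265 against 64.35 in replicate 2. Median tag counts were also higher, at 503.5 against 237 and 511.5 against 32. At gene ends alone the order of the folds turned, with 7.83 at joint peaks against 7.47 without JARID2 in replicate 1, and 5.94 against 5.75 in replicate 2. The widths at gene ends kept their order but came closer, at 4116 bp against 3544 bp and 3896 bp against 3310 bp.

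JARID2 replicate 1 peaks inside EZH2 replicate 1 also had a lower median fold than those outside. Their median fold was 9.60, against 10.34 outside, while they held more tags (median 21 against 12) and were wider (873 against 599 bp). With the list split into 3 equal groups by JARID2 fold, 5.57% of the lowest, 4.02% of the middle and 3.77% of the highest group met EZH2 replicate 1. EZH2 replicate 2 gave 5.89%, 3.96% and 4.23%, so the lowest group met EZH2 most often in both lists and the other groups had no common order. At gene ends the shares were 10.2%, 11.7% and 15.3% for EZH2 replicate 1 and 10.9%, 11.0% and 16.2% for replicate 2, with the highest group on top in both. The lowest group held 2209 gene-end peaks and the highest 896.

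JARID2 summits lay well inside the EZH2 peaks and close to their summits. Of the overlapping JARID2 replicate 1 peaks, 689 of 698 and 723 of 736 had their summit inside the EZH2 peak. The median distance between the summits was 361 bp for EZH2 replicate 1 (quartiles 134 and 939 bp) and 391 bp for replicate 2 (120 and 1043 bp). Within 500 bp were 60.1% and 57.3% of them, and beyond 2 kb 10.7% and 10.7%. For scale, the summits of EZH2 replicate 1 lay a median of 130 bp from the EZH2 replicate 2 summit of the same peak, with 81.0% within 500 bp.

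Along the EZH2 peak, cut into 5 equal parts, the middle part held 38.2% and 39.0% of JARID2 replicate 1 summits in EZH2 replicates 1 and 2. The 2 outer parts together held 13.1% and 13.7%, where an even spread puts 20% in each part. In EZH2 peaks of 8 kb or wider the middle part held 25.0% and 20.2%, close to an even spread. The 72 and 76 THLE-2 JARID2 summits inside EZH2 replicate 1 peaks lay farther out, at medians of 916 and 637 bp, with 25.0% and 46.1% within 500 bp. Inside EZH2 replicate 2 the THLE-2 medians were 783 and 555 bp. Both medians of HepG2 replicate 1 were below all 4 medians of THLE-2, from a single HepG2 library. In JARID2 replicate 2 only 5 of 7 and 6 of 11 overlapping peaks had their summit inside.

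**Figure D3:**
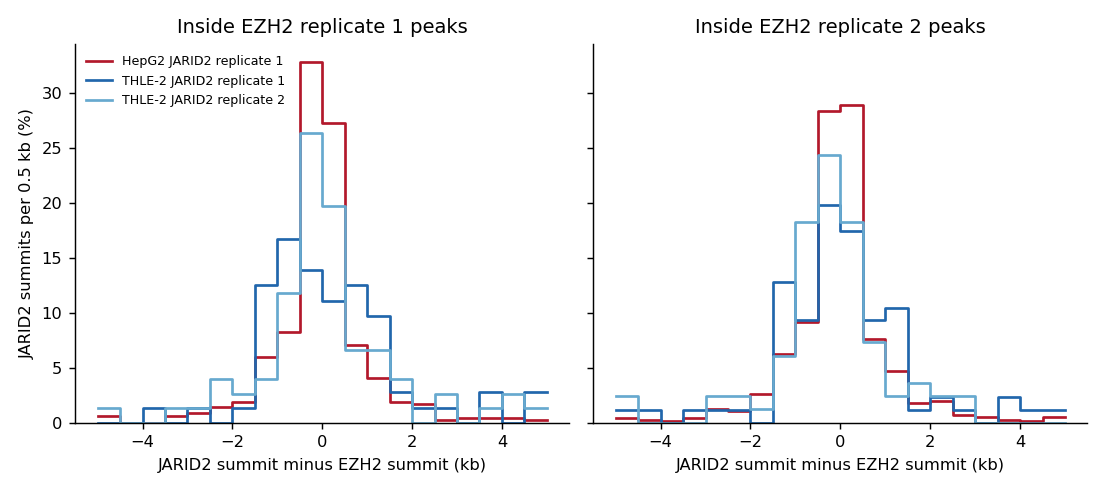
Distance from the JARID2 summit to the EZH2 summit (kb, in 0.5 kb bins, as percent of summits inside EZH2 peaks) for HepG2 JARID2 replicate 1 (red) and THLE-2 JARID2 replicates 1 and 2 (dark and light blue), left panel EZH2 replicate 1 and right panel EZH2 replicate 2. The red curve peaks within 0.5 kb of the EZH2 summit on either side, where 60.1% and 57.3% of its summits lie.

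Genes of joint sites were counted among protein-coding genes with an EZH2 peak within 2 kb of either annotated end. JARID2 replicate 1 lay in the EZH2 peak of 532 of 1183 such genes (45.0%) for EZH2 replicate 1 and of 540 of 1307 (41.3%) for EZH2 replicate 2, and these shares are the background for the classes that follow. JARID2 replicate 2 lay in the EZH2 peak of 0 of 1183 and 0 of 1307 genes (0 for both). Both EZH2 lists marked 975 genes, of which 441 were joint in both, 519 were without JARID2 in both and 15 differed. Neighbouring genes can share a peak and so are not independent. Seen from JARID2 replicate 1, 11.6% and 12.3% of its 4502 gene-end genes had an EZH2 peak of replicates 1 and 2, against 5.92% and 6.54% of all 19970 coding genes.

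Developmental transcription factors other than HOX genes were joint more often than EZH2 genes as a whole. Of 79 with EZH2 replicate 1, 51 were joint (64.6%, 53.6 to 74.2), and of 86 with EZH2 replicate 2, 52 (60.5%, 49.9 to 70.1), against the 45.0% and 41.3% of all EZH2 genes. They made up 9.59% and 9.63% of joint genes, against 4.30% and 4.43% of EZH2 genes without JARID2, differences of 5.29 and 5.20 points. EZH2 peaks at these genes were wide. The widest peak per gene had a median of 7892 and 7575 bp, against 3867 and 3631 bp at all EZH2 genes. Among EZH2 peaks of 4 kb or wider, an alternative added after seeing the data, 48 of 73 (65.8%) and 46 of 76 (60.5%) were joint, against 49.8% and 48.4% of all genes with such peaks. Width was not matched above 4 kb. Of all gene-end EZH2 peaks of 8 kb or wider, 55.7% and 52.8% were joint. The part of width in the excess was not tested further. Among peaks with a peak caller score of at least 100, 15 of 72 (20.8%) and 15 of 81 (18.5%) were joint, against 16.9% and 17.0% of all such genes, and the differences were 2.25 and 0.891 points.

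Families within this class differed in their joint shares, though each has few members. Forkhead (FOX) genes, which encode factors of many embryonic tissues, were joint in 15 of 18 and 16 of 20 cases for EZH2 replicates 1 and 2. The intervals (60.8 to 94.2% and 58.4 to 91.9%) lie above the share of all EZH2 genes. Families were not split by peak width or score, and the intervals treat genes that share a peak as independent. The count includes FOXL2NB, a neighbour of FOXL2 that is matched by its symbol and is not itself a forkhead gene. Iroquois homeobox genes (IRX1 to IRX5), which pattern heart, limb and neural tissue, were joint in 5 of 5 cases in both lists. POU genes, mainly neuronal factors here, were joint in 4 of 5 cases (POU3F1, POU3F2, POU3F3 and POU4F1, but not POU4F2). LHX genes, LIM homeobox factors of the forebrain and other tissues, were joint in 3 of 4 and 4 of 5. The intervals of the POU and LHX families include the share of all EZH2 genes.

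SOX genes were joint in 5 of 10 cases in both lists, with SOX1, SOX8, SOX11, SOX18 and SOX21 joint in both and SOX2, SOX3, SOX7 and SOX17 without JARID2 in both. NKX genes were joint in 6 of 11 and 5 of 10 cases. T-box genes were joint in 2 of 7 and 3 of 8, and TBXT, the mesoderm factor brachyury, was without JARID2. DLX genes of the craniofacial skeleton and forebrain were joint in 1 of 4 and 1 of 5, with DLX6 the joint one. These small families have intervals that include the background.

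The HOX clusters split by cluster. In all, 14 of 25 HOX genes with EZH2 replicate 1 and 17 of 31 with EZH2 replicate 2 were joint (56.0% and 54.8%). With a score of at least 100 in both lists the direction turned, with 1 of 25 (4%) and 4 of 30 (13.3%) joint, against 16.9% and 17.0% of all such genes. With windows of 5 kb, 19 of 28 (67.9%) and 22 of 32 (68.8%) were joint. HOXA genes were joint in 7 of 7 and 9 of 10 cases, HOXD in 4 of 8 and 5 of 9, HOXC in 3 of 6 and 3 of 8, and HOXB in 0 of 4 and 0 of 4. JARID2 replicate 1 had 11 peaks over HOXA, a 107 kb cluster, against 3 over HOXB, 3 over HOXC and 5 over HOXD. Of the 11 HOXA peaks, 7 and 9 met EZH2 replicates 1 and 2. The counts were 3 and 5 of 5 over HOXD, 2 and 3 of 3 over HOXC, and 1 and 0 of 3 over HOXB. JARID2 replicate 2 had 0 peaks in each of the 4 clusters. The clusters are 103 to 200 kb long in a chromosome span of 3030 Mb, and this list held 4075 peaks. At an even spread few of those would fall in a cluster, so the 0 says little about HOX genes. EZH2 covered 49.7% and 61.0% of HOXA, 53.8% and 65.2% of HOXD, 38.8% and 65.0% of HOXC, and 18.6% and 18.3% of HOXB.

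Among single HOX genes, HOXA4 had a JARID2 replicate 1 peak with a fold of 16.76, and EZH2 folds of 10.95 and 7.95. Its JARID2 summit lay 202 bp downstream of the RefSeq start. HOXD1 had a JARID2 fold of 14.94 and EZH2 folds of 7.14 and 9.37. HOXD13 was counted as joint through a broad EZH2 peak although no JARID2 peak lay within 2 kb of its own ends. HOXD3 and HOXD4 shared an EZH2 peak with folds of 15.12 and 13.16 that no JARID2 peak came within 10 kb of.

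The signalling and channel classes had intervals that include the background. BMP, FGF and GDF genes, ligands of growth and patterning pathways, were joint in 7 of 13 and 7 of 12 cases, with BMP6, BMP8B, FGF4, FGF8, FGF9, FGF19 and GDF6 joint in both lists. Among the 11 with EZH2 in both lists, 7 (63.6%) were joint in both, against 45.2% of all genes with EZH2 in both and 63.2% of the developmental transcription factors. Ion channel and transmitter receptor genes were joint in 22 of 46 and 28 of 58 cases, among them KCNK4, a potassium channel with a JARID2 fold of 10.67 and EZH2 folds of 8.37 and 7.72. In EZH2 peaks of 4 kb or wider the channel class went different ways in the 2 lists, with 12 of 25 (48%) and 17 of 25 (68%) joint, against 49.8% and 48.4% of all such genes. WNT ligand and FZD receptor genes were joint in 3 of 8 and 2 of 6 cases.

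The liver classes were small. Among liver transcription factors, 4 of 5 and 4 of 6 EZH2 genes were joint. CEBPA, a factor of hepatocyte differentiation, had a JARID2 fold of 11.25 and EZH2 folds of 12.82 and 5.22, and its JARID2 summit lay 260 bp downstream of the start. ONECUT1, another hepatocyte factor, had a JARID2 fold of 8.53 and EZH2 folds of 7.83 and 5.94. FOXA2 and ONECUT3 were also joint. Among 124 genes of liver function (CYP, UGT, APO and SERPIN symbols), 5 and 6 had EZH2 and 1 and 0 of these were joint, the 1 being CYP26C1, a retinoic acid hydroxylase. Ribosomal protein and clustered histone genes had 0 EZH2 genes in either list, and 0 of 2 and 0 of 3 olfactory receptors were joint.

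**Figure D4:**
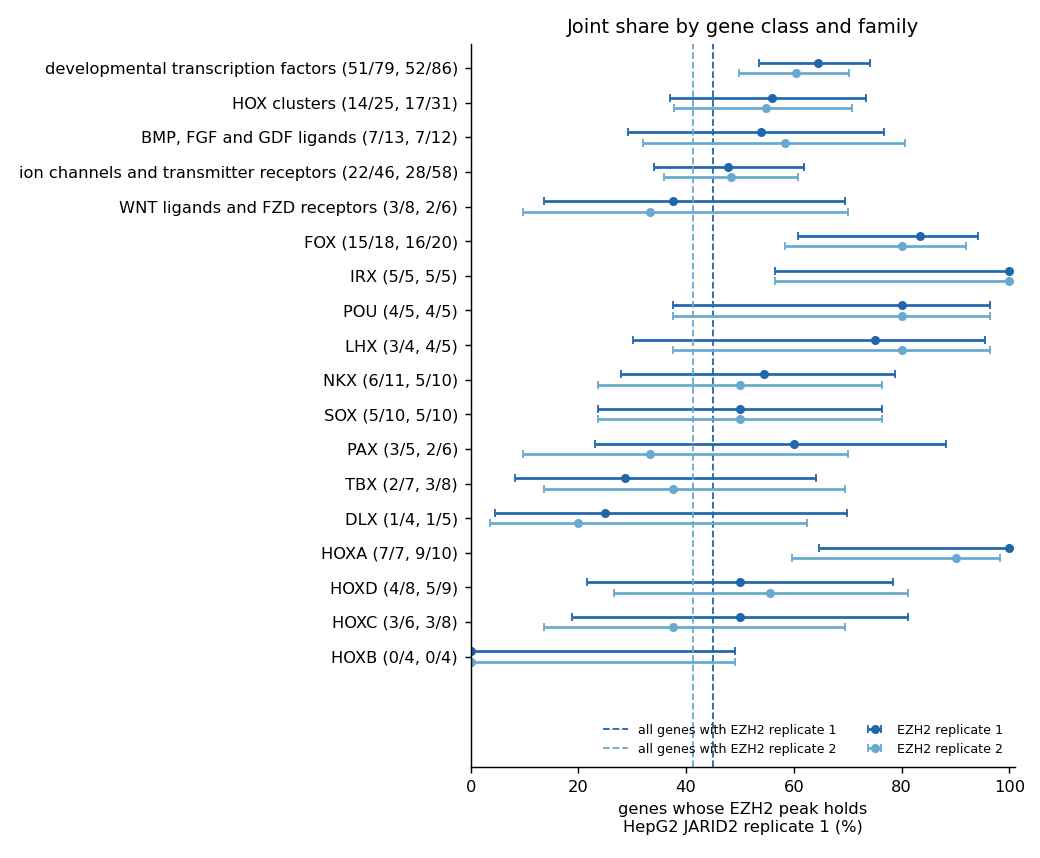
Share of genes with a THLE-2 EZH2 peak whose peak holds HepG2 JARID2 replicate 1 (percent) by class, transcription factor family and HOX cluster, dark blue for EZH2 replicate 1 and light blue for replicate 2, with Wilson 95% intervals; counts in brackets are joint over EZH2 genes in the 2 lists. Developmental transcription factors, FOX, IRX and HOXA lie with their whole intervals to the right of the dashed lines for all EZH2 genes (45.0% and 41.3%). Width of the EZH2 peaks was not held fixed. Several other rows have points to the right but intervals that include the lines. HOXB lies at 0, with intervals that also include them.

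At 399 coding genes a JARID2 replicate 1 peak overlapped EZH2 peaks of both replicates within 2 kb of a gene end. A gene start was on record for 274 of them, and at 221 the peak lay at the start. Genes were ranked by their worst percentile of fold over the 3 lists. PDZD4 on chromosome X, whose CG-rich window is printed above, had a JARID2 fold of 14.94 and EZH2 folds of 13.83 and 9.88. The JARID2 summit was 512 bp upstream of its start.

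CELF4 on chromosome 18, which encodes an RNA-binding protein of neurons, had a JARID2 fold of 14.44 and EZH2 folds of 19.57 and 16.16. Its JARID2 summit was 41 and 1 bp from the EZH2 summits of replicates 1 and 2, among the closest of the named genes. NKX2-4, a homeobox gene on chromosome 20, had a JARID2 fold of 13.87 and EZH2 folds of 11.96 and 9.78. MPPED1 on chromosome 22 had a JARID2 fold of 14.44 and EZH2 folds of 14.97 and 8.42, with the JARID2 summit 513 bp upstream of the start. BHLHE23, a factor of retinal and other neurons, had a JARID2 fold of 14.94 and EZH2 folds of 10.85 and 10.08, with summits 159 and 240 bp apart.

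RAI2 had a JARID2 fold of 17.07 and EZH2 folds of 10.40 and 10.13, with the JARID2 summit 121 bp downstream of the start. VWC2, a secreted BMP antagonist gene, had a JARID2 fold of 16.15 and EZH2 folds of 10.66 and 9.45. FOXD3, a neural crest factor, had a JARID2 fold of 12.90 in an EZH2 peak of 15711 bp in replicate 1, with EZH2 folds of 18.47 and 12.43. At LHX8, a forebrain factor, the JARID2 summit lay 6180 bp from the EZH2 replicate 1 summit in a peak of 13729 bp. GOLGA8A belongs to a family of near-identical copies on chromosome 15, so its peak position is uncertain.

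BMI1, a subunit of Polycomb repressive complex 1, shared its peaks with the neighbouring COMMD3. The JARID2 peak had a fold of 12.34 and 19 tags, and the EZH2 peaks folds of 12.93 and 16.33. BMI1 and COMMD3 were the only 2 of the 15 best-ranked genes without an H3K27me3 replicate 2 peak over the JARID2 peak, and none of the 15 had an H3K27me3 replicate 1 peak there. Tag counts in JARID2 peaks were low, with 10 (LHX8) to 51 (NKX2-4) tags at the 15 genes, against 100 (GOLGA8A) to 2790 (FOXD3) tags in the EZH2 replicate 1 peaks. The JARID2 peaks were narrower and their library shallower, with 7.95 against 29.6 M tags, so these counts do not compare binding strength.

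**Figure D5:**
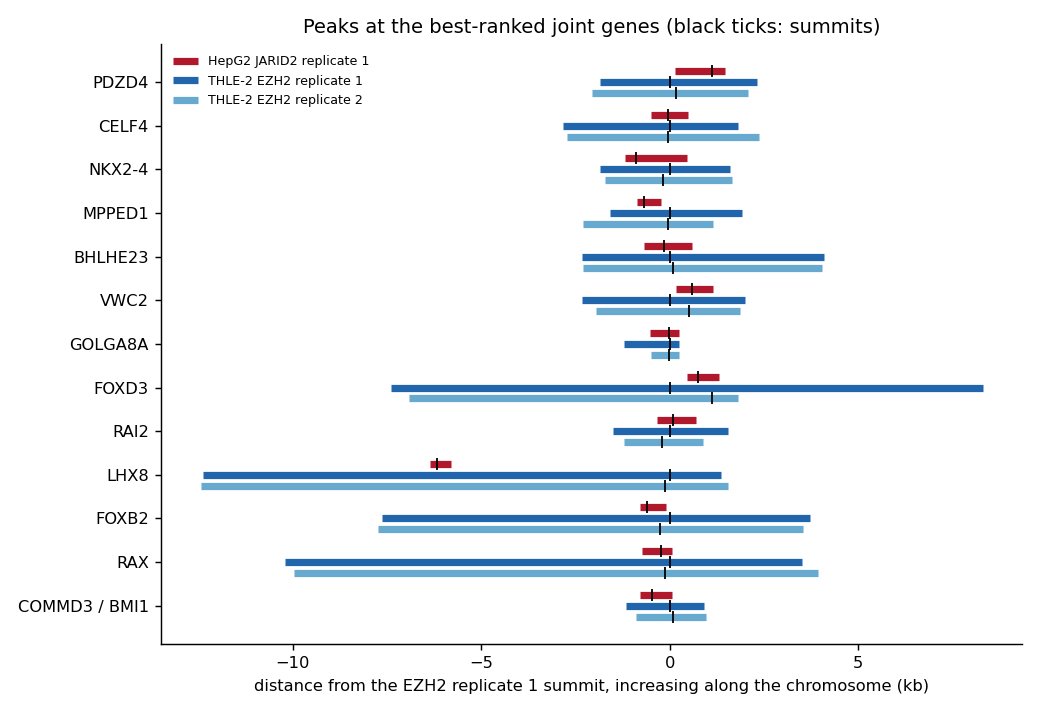
Peaks of HepG2 JARID2 replicate 1 (red), THLE-2 EZH2 replicate 1 (dark blue) and THLE-2 EZH2 replicate 2 (light blue) at 14 of the 15 best-ranked joint genes, as distance in kb from the EZH2 replicate 1 summit, with black ticks at summits; COMMD3 and BMI1 share 1 of the 13 rows. The JARID2 peaks are shorter than the EZH2 replicate 1 peaks, and the summits are farthest apart at LHX8 (6180 bp).

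Strongly enriched EZH2 peaks were also found at genes without JARID2. EZH2 of both replicates and no HepG2 JARID2 peak of either replicate within 10 kb were found at 424 coding genes. LGR6 had EZH2 folds of 17.08 and 14.66 in narrow peaks of 1037 and 900 bp. OLIG2, a factor of motor neurons and oligodendrocytes, had folds of 15.17 and 11.07 in peaks of 17730 and 17026 bp. PELI2 had folds of 15.96 and 10.98, and SLC6A5, a glycine transporter gene, 15.12 and 10.41. RNF220, a ubiquitin ligase gene, had 17.86 and 10.86, and ZNF521, a zinc finger factor, 13.29 and 9.45.

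The genes of the complex itself were not joint. JARID2 had a JARID2 replicate 1 peak at its own gene with a fold of 8.53, and EZH2 one with a fold of 6.98, and neither had an EZH2 peak. No peak of the 4 lists lay within 2 kb of an end of SUZ12, EED, CDKN2A or CDKN2B, the last pair being cell cycle inhibitor genes and classical Polycomb targets.

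Over EZH2 peaks of every width, the 2 H3K27me3 lists of THLE-2 differed in direction at joint sites. Averaged within width classes both were lower there, though these averages carry no interval. H3K27me3 replicate 1 lay over 2.30% of joint EZH2 replicate 1 peaks, against 13.1% of those without JARID2, and over 1.72% against 14.6% in EZH2 replicate 2. H3K27me3 replicate 2 lay over 71.4% against 64.3%, and over 69.4% against 45.1%. Within EZH2 peaks of 2 to 4 kb, however, H3K27me3 replicate 2 lay over fewer joint peaks (73.8% and 71.2%) than peaks without JARID2 (82.2% and 81.4%). Both H3K27me3 lists were lower at joint peaks in each class from 2 kb upward, but not in every narrower class. Under 1 kb, H3K27me3 replicate 2 lay over 66.7% of 6 and 40% of 20 joint peaks, against 29.8% and 23.9% of those without JARID2. Averaged within width classes, the difference for H3K27me3 replicate 2 turned to -5.39 and -6.36 points for EZH2 replicates 1 and 2, and that for H3K27me3 replicate 1 was -4.13 and -5.63 points, against -10.8 and -12.9 points over every width. JARID2 of THLE-2 replicates 1 and 2 lay over 4.61% and 5.10% of joint EZH2 replicate 1 peaks, against 3.05% and 3.33% of those without HepG2 JARID2, and within width classes these differences were -0.134 and -0.0651 points. In EZH2 replicate 2 the shares were 5.02% and 5.49% of joint peaks, against 1.80% and 1.80%, and the differences within width classes were 0.136 and 0.819 points. Place was not held fixed in these comparisons. Joint EZH2 peaks lay at gene ends in 78.8% and 76.3% of cases, against 44.6% and 26.0% of those without JARID2, and its part was not tested.

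The few joint sites of JARID2 replicate 2 lay away from coding gene ends, as did most peaks of that list. Of its 7 overlaps with EZH2 replicate 1 and 11 with replicate 2, 0 were at a gene end. In the whole JARID2 replicate 2 list 139 of 4075 peaks (3.41%) lay at a gene end, so 0 of 7 and 0 of 11 are near that share. A peak on chromosome 2 from 118224039 to 118224685 met both EZH2 lists and JARID2 replicate 1, with a JARID2 fold of 10.51 and EZH2 folds of 9.98 and 5.40. The EZH2 replicate 1 peak there lay 111343 bp from INSIG2, the nearest coding gene. A peak on chromosome 5 from 49666059 to 49667348 also met all 3 other lists, with a JARID2 fold of 5.63 and EZH2 folds of 5.13 and 5.07, and EMB, the nearest coding gene, lay 728760 bp from the EZH2 replicate 1 peak. Another, on chromosome 10 from 38526686 to 38529923, met both EZH2 lists with a JARID2 fold of 4.61, and the EZH2 replicate 1 peak lay 376382 bp from ZNF37A. The peaks on chromosomes 5 and 10 held 92 and 157 JARID2 tags, against a median of 14 in their list, with folds under its median of 9.63. Whether reads map to a single place there was not checked. In EZH2 replicate 2 alone, JARID2 replicate 2 also met peaks inside WWTR1, PTPRO, ZNF84 and ZFHX3.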

How the data were processed

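Chromatin from HepG2 and THLE-2 was sequenced after immunoprecipitation, 2 replicates per target and line, each with an input. Per the file headers, MACS 1.4.2 called peaks in each library against its own input with a p cutoff of 1.00e-05 and 1 tag per position, and replicates were not pooled. The authors deposited for each peak a tag count, a score (-10 times log10 of the p-value), the fold enrichment ratio over background and a false discovery rate in percent. The genome build is GRCh38, per the submitters' processing notes. Reads and coverage were not used, so a site without a peak is one where none was called. Folds were used only within their own list.

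Overlaps of at least 1 bp, summit distances and gene windows (2 kb on either side of both ends of 19970 RefSeq coding genes) were computed in Python 3.11.15 with numpy 2.4.6, pandas 2.3.3 and scipy 1.17.1, checked on simulated peaks. Shares carry Wilson 95% intervals. Peaks of 1 library are not replicates, so no p-value was computed over them; the JARID2 libraries of both lines were compared by exact permutation. Named genes were the 15 joint genes and 10 genes without JARID2 with the best worst-rank of fold, up to 4 members per class, the HOX clusters, JARID2, EZH2, SUZ12, EED, CDKN2A and CDKN2B. Some genes that this rule takes are not reported here. No gene had EZH2 peaks within 2 kb of its ends that met both HepG2 JARID2 libraries. The comparison, gene classes and rules were chosen with earlier results of these data known. Alternatives changed the overlap rule, score, peak numbers, window, width and libraries.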

Additional observations from a re-analysis of the deposited data

How the results depend on the processing

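Over 30 results and 127 alternatives, 11 values changed direction and 26 others moved past their 95% interval (for median widths, by over 1.5 times). The remaining 90 did not move that far, where for the comparison of HepG2 with THLE-2 JARID2 only the direction was judged and for gene counts a change of 1.5 times. With a score of at least 100 in both lists, the share of JARID2 peaks that met EZH2 was 10.3% and 11.4% for JARID2 replicate 1 with EZH2 replicates 1 and 2, and 1.79% for JARID2 replicate 2 with either. The share of EZH2 peaks with JARID2 was then 13.5% and 12.5% for JARID2 replicate 1, and 0.0868% and 0.0733% for replicate 2. With the 2081 top peaks of every list, EZH2 peaks held JARID2 replicate 1 in 4.47% and 2.02% of cases and JARID2 replicate 2 in 0.0961% of cases in both. In the other direction, 2.02% of JARID2 replicate 1 and 0.144% of JARID2 replicate 2 peaks met EZH2 replicate 2. Both alternatives keep fewer peaks. By summit, 0.147% of JARID2 replicate 2 peaks lay in EZH2 replicate 2. Without chromosome ends, 16.2% of EZH2 replicate 2 peaks held JARID2 replicate 1.

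The joint excess of developmental transcription factors was 2.25 and 0.891 points at a score of at least 100, and 8.46 points in EZH2 replicate 1 peaks of 4 kb or wider, which was chosen after seeing the data. At a score of at least 100 the HOX difference turned to -2.55 and -0.772 points, and that of channels to -0.989 points in EZH2 replicate 1. For channels it was -0.331 points in EZH2 replicate 1 peaks of 4 kb or wider and 3.65 points in those of EZH2 replicate 2, against 0.449 and 1.27 points over every width. The cause was not tested. The share of summits in the middle of 5 equal parts of the EZH2 peak stayed within its interval under all 3 alternatives.

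Averaged within width classes, the difference for H3K27me3 replicate 1 was -4.13 and -5.63 points. For H3K27me3 replicate 2 it turned to -5.39 and -6.36 points, each for EZH2 replicates 1 and 2. For THLE-2 JARID2 replicates 1 and 2 it turned to -0.134 and -0.0651 points in EZH2 replicate 1, and was 0.136 and 0.819 points in EZH2 replicate 2. With an overlap of 500 bp, H3K27me3 replicate 1 gave -10.6 points in EZH2 replicate 2. At gene ends alone the difference in median fold turned to 0.36 and 0.19, and that in median width was 572 and 586 bp.

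Leaving out libraries in turn gave differences between HepG2 and THLE-2 JARID2 from -1.53 points (without HepG2 replicate 1) to 3.59 points (without HepG2 replicate 2), and from 532 to 540 genes joint with the EZH2 list that remained. No paired analysis was possible because the shares come from no fit and replicate numbers were given separately for each target and line. With 2 replicates per group, of which the JARID2 replicates shared few peaks, the spread between cultures of HepG2 is not known, and 56 JARID2 replicate 2 peaks with a score of at least 100 limit what could be seen there.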
